A study of Homo sapiens with 4 samples.

Results

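Alpha and beta tubulin are the paired subunits of microtubules, and each is encoded by several genes called isotypes. The rows described here were chosen by symbol from a table of 24014 genes: 10 tubulin symbols were listed, 9 were found, and they gave 10 rows, 4 for alpha tubulin (TUBA1A, TUBA1B, TUBA1C and TUBA4A) and 6 for beta tubulin (TUBB2A, TUBB2B, TUBB3, TUBB4B, TUBB6 and a further row that also carries the symbol TUBB3). TUBB was listed too and was not analysed here. The list was drawn up with earlier results of these data known, so the levels and differences below are a description of these libraries. The RNA came from SK-N-SH, a human neuroblastoma cell line, in 4 bulk RNA-seq libraries. In 2 libraries the cells carried a lentiviral vector with no insert (control) and in 2 they carried a lentivirus with AP1AR-DT, a long non-coding RNA, listed as AC109347.1 (AP1AR-DT_OE). The controls are also labelled WT and wild type, although their treatment was the empty vector, so the cells of both groups were treated with a lentiviral vector. For AP1AR-DT_OE 2 the title gives the same RNA, and was followed, while its genotype and treatment read AC109347.2. Nothing states whether the libraries of a group came from separate cultures, so p-values measure only the spread between these libraries, which may be technical.

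Microtubules are built from dimers of 1 alpha and 1 beta tubulin. New chains of both are folded by the prefoldin and CCT chaperones and joined by tubulin cofactors, and the isotypes differ mostly in their short acidic ends, which lie on the outside of the microtubule and are read by motors, by associated proteins and by enzymes that add or remove tyrosine and glutamate. TUBA1A and TUBB3 are the isotypes best known from neurons, TUBB2A and TUBB2B are abundant in developing brain, TUBA1B and TUBB4B are made by most dividing cells, TUBA4A is known for lacking the terminal tyrosine of other alpha isotypes, and TUBB6 is a divergent beta isotype of non-neuronal tissues. Cells also hold tubulin mRNA in check through a feedback in which TTC5 recognizes the first residues of a nascent tubulin chain on the ribosome and the mRNA is then degraded.

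The starts of the coding sequences, and the ends of those of the beta isotypes, are shown because the first is the part read by that feedback and the second is the part in which isotypes differ. Both were read from the GENCODE v44 transcripts mapped to GRCh37. The first 30 coding bases are given 5′ to 3′, with the first 12 bases, the codons of the recognized residues, in capitals.
TUBA1B: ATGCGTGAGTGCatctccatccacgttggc
TUBA1A: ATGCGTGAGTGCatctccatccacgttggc
TUBA1C: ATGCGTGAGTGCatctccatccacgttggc
TUBA4A: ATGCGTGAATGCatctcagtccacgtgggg
TUBB4B: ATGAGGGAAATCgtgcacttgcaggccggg
TUBB3: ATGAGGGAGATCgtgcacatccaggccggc
TUBB6: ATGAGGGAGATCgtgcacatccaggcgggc
TUBB2B: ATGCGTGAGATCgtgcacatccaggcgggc
TUBB2A: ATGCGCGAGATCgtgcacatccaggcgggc

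TUBA1A, TUBA1B and TUBA1C had the same 30 bases at the start. The last 60 coding bases of the beta isotypes follow, stop codon included. Capitals mark the bases that were not matched in an alignment with TUBB4B.
TUBB4B: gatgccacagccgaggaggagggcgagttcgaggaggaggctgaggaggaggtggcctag
TUBB3: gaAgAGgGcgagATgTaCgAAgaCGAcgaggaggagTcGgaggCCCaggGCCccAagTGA
TUBB6: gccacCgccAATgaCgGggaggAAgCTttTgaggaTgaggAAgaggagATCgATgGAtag
TUBB2B: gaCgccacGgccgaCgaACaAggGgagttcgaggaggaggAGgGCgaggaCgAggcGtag
TUBB2A: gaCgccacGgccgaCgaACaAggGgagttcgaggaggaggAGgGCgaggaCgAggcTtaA

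Of these 60 bases 14 were marked in TUBB2B, 15 in TUBB2A, 21 in TUBB6 and 25 in TUBB3.

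Over whole coding sequences the alpha isotypes shared 84.4% to 97.2% of bases with each other and the beta isotypes 83.2% to 98.1%. An alpha and a beta coding sequence shared 54.4% to 57.3%. The closest alpha pair was TUBA1A and TUBA1B at 97.2%, and the closest beta pair was TUBB2A and TUBB2B at 98.1%.

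**Figure D1:**
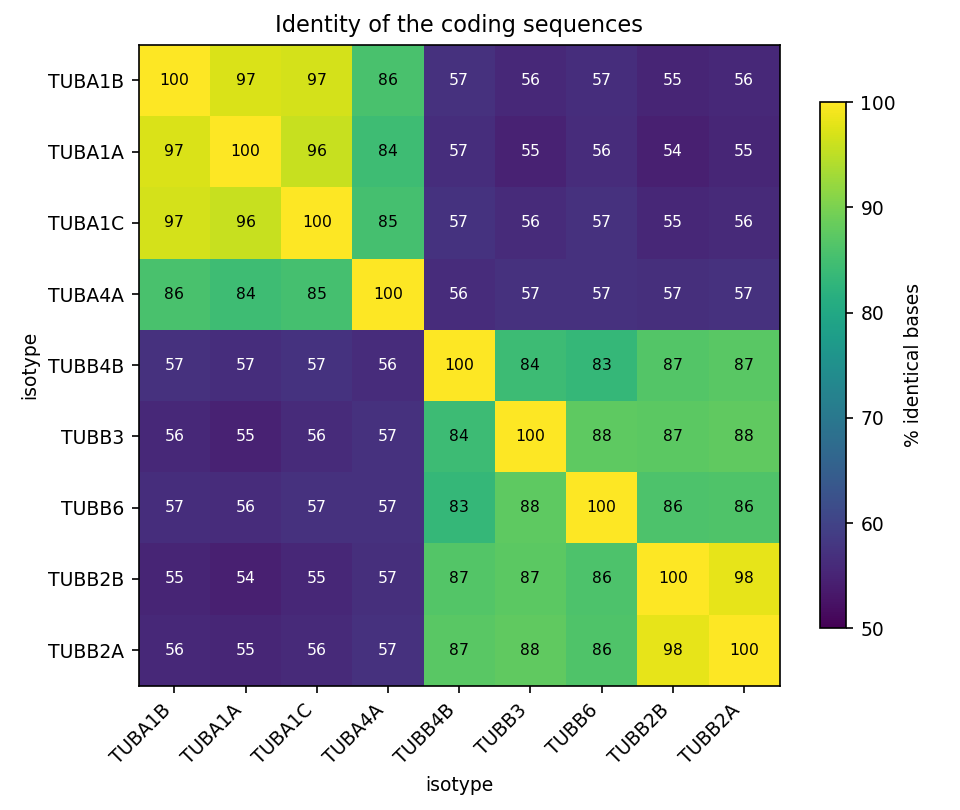
Heat map of the percentage of identical bases between the coding sequences of 9 tubulin isotypes, in a global alignment of each pair, with isotypes on both axes and the value in each cell. TUBA1A, TUBA1B and TUBA1C form a block of at least 95.9%, TUBB2A and TUBB2B share 98.1%, and alpha against beta lies between 54.4% and 57.3%.

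To show shared sequence, every stretch of 100 bases of a row's transcript was looked for in the transcripts of genes that lie elsewhere. A stretch is shorter than a 150-bp read, so a pair covering one found elsewhere may still have been placed. In TUBB2A 55.6% of the stretches and in TUBB2B 48.7% were also present in a gene elsewhere, for most of them the other gene of the pair. The share was 37.2% in TUBA1B, 18.1% in TUBA1A and 10.5% in TUBA1C, mostly in one another. It was 5.35% in TUBB3 and 3.01% in TUBB4B. TUBA1A and TUBA1C overlap each other, so these figures leave out what those 2 genes share. With genes that overlap a row counted too, the share was 92.5% in TUBB3, 71.1% in TUBA1B and 31.6% in TUBA1C. It was then 29.1% in TUBA4A, 21.5% in TUBA1A and 4.71% in TUBB4B. No stretch of TUBA4A or TUBB6 was found elsewhere. The authors' counting of reads that fit several genes is not given for these cells in the sources used here, so the division of counts between TUBA1A, TUBA1B and TUBA1C, and between TUBB2A and TUBB2B, is uncertain. Whether counting used the strand is not stated either. On the opposite strand 1571 exon bases of TUBA1B are shared with TUBA1B-AS1, 628 of TUBA4A with STK16 and 837 of TUBB6 with AFG3L2, and reads of such partners cannot be told apart without strand.

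The libraries held 21988065 to 26184599 counts, and the tubulin rows took 0.656% to 0.753% of them. AP1AR-DT itself had counts of 3 and 18 in control against 680 and 1065 in AP1AR-DT_OE, so that each library matched its label. As a check of the cell type, 8 of the 9 markers of neuroblast-like (adrenergic) cells that had a row had a mean of 50 or more normalized counts, and so did all 10 mesenchymal markers. CD14 and EPCAM, markers of blood and epithelial cells, summed to at most 18.9 normalized read counts in any library. The other 4 markers of cell types that the culture should lack, and TH among the adrenergic ones, were not analysed here.

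The isotype mix was dominated by a few genes. To compare genes, each normalized read count (the count divided by the size factor of its library) was divided by the length of the transcript in kb. TUBA1B (ENSG00000123416; chromosome 12, 49127782 to 49131397, GRCh38, minus strand) stood highest on this scale. Its level per kb was 42126 in control 1, 29873 in control 2, 43883 in AP1AR-DT_OE 1 and 35037 in AP1AR-DT_OE 2, or 37730 ± 6485 (SD, n = 4). That placed it at rank 46 of the 23954 genes that could be ranked per kb. Control 2 was the lowest of the 4 libraries and AP1AR-DT_OE 1 the highest.

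TUBB4B (ENSG00000188229; chromosome 9, 137241287 to 137243707, plus strand) was the highest of the beta isotypes analysed here, which leave out TUBB, at rank 91. Its level per kb was 27617 and 17432 in control against 26248 and 21824 in AP1AR-DT_OE. TUBA1A (ENSG00000167552; chromosome 12, 49184686 to 49189080, minus strand) came next, with 15617 and 12162 in control against 15871 and 12924 in AP1AR-DT_OE, and ranked 149. TUBB3, the beta isotype used as a marker of neurons (ENSG00000258947; chromosome 16, 89921392 to 89938761, plus strand), ranked 170 with 14392 and 9664 per kb in control against 14284 and 11059 in AP1AR-DT_OE. TUBB6 (ENSG00000176014; chromosome 18, 12307669 to 12344320, plus strand) ranked 258, with 8326 and 6766 in control against 8843 and 7378 in AP1AR-DT_OE. In each of these rows the lowest library was control 2.

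The remaining isotypes were several times lower. TUBB2B (ENSG00000137285; chromosome 6, 3223324 to 3231730, minus strand) had 2431 and 1988 per kb in control against 2584 and 2078 in AP1AR-DT_OE. Its neighbour TUBB2A (ENSG00000137267; chromosome 6, 3153497 to 3157544, minus strand) had 1765 and 1523 against 1832 and 1743. TUBA4A (ENSG00000127824; chromosome 2, 219249710 to 219277902, minus strand) had 411 and 313 against 414 and 368. These 3 rows kept the pattern of the abundant ones, with control 2 lowest.

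TUBA1C, the third of the neighbouring alpha genes (ENSG00000167553; chromosome 12, 49188736 to 49274600, plus strand), was in every library the lowest of the isotypes described here. It had 78.3 and 61.8 per kb in control against 91.7 and 94.6 in AP1AR-DT_OE. It ranked 9216 of 23954. TUBA1C lies on the opposite strand to TUBA1A and their exons overlap by 345 bases, so without a stated use of strand a part of their reads cannot be told apart.

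**Figure D2:**
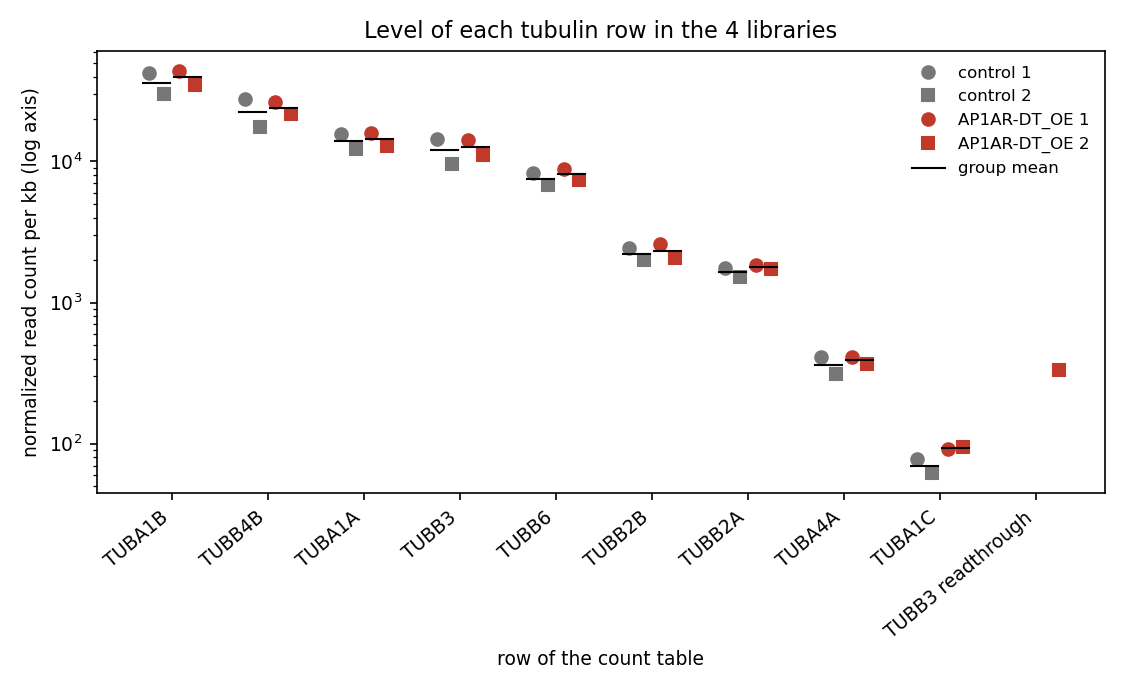
Level of each tubulin row in the 4 libraries, as normalized read count per kb of transcript on a log axis, with grey symbols for control, red symbols for AP1AR-DT_OE, circles for replicate 1, squares for replicate 2 and bars for the group means. The rows run from TUBA1B, at 29873 to 43883, down to TUBA1C, at 61.8 to 94.6, control 2 is the lowest library in 9 rows, and the second TUBB3 row (TUBB3 readthrough) is drawn in AP1AR-DT_OE 2 only, since it was 0 in the other 3 libraries, with no bar.

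The order of the 9 isotypes by level per kb of transcript was the same in all 4 libraries. It was the same by the mean per kb of coding length, but not when all exons of a gene gave its length: TUBB4B then stood first, with a mean of 17863 per kb against 17176 for TUBA1B and overlapping ranges, and TUBB6 stood above TUBB3 (3732 against 2839). The ranges over the 4 libraries of TUBA1A and TUBB3, neighbours in that order, overlapped (12162 to 15871 against 9664 to 14392). Both were measured in the same libraries, and TUBA1A was the higher in each of the 4, by 1.15-fold between the means. This difference was not tested. Per kb of transcript, every other pair of neighbours had ranges that did not overlap. The narrowest of these steps was from TUBB2B to TUBB2A, at 1.32-fold between the means, and the widest was from TUBA4A to TUBA1C, at 4.62-fold.

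Set against its own class, TUBA1B made up 72.3% and 70.4% of the alpha pool (the summed level per kb of the 4 alpha isotypes) in control against 72.8% and 72.4% in AP1AR-DT_OE. TUBA1A made up 26.8% and 28.7% against 26.3% and 26.7%. TUBA4A held 0.688% to 0.760% in the 4 libraries and TUBA1C held 0.134% to 0.195%. The pool of these 4 isotypes was therefore almost wholly TUBA1B and TUBA1A in both groups. Pseudogene counts are not in this pool, and with them added TUBA1B held 50.8% and TUBA1A 19.2% on average.

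The shares of TUBA1B, TUBA1A and TUBA1C did not overlap between the groups, with TUBA1B and TUBA1C higher and TUBA1A lower in AP1AR-DT_OE. By level, 9.45% of all genes with a mean of at least 50 did not overlap, and no background was worked out for shares. The division of counts between these genes is also uncertain. The difference of the means was 1.20 percentage points for TUBA1B and -1.23 for TUBA1A, in shares that must sum to a fixed total. These 2 were smaller than the 1.90 and 1.86 points by which the controls differed from each other, whereas the 0.0337 points of TUBA1C were larger than the 0.0112 between the controls and smaller than the 0.0431 between the AP1AR-DT_OE libraries. With 2 libraries against 2, an exact two-sided permutation test cannot give a p below 0.333.

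In the beta pool, which leaves out TUBB, TUBB4B held 50.6% and 46.6% in control against 48.8% and 49.1% in AP1AR-DT_OE. The TUBB3 rows together held 26.4% and 25.9% against 26.6% and 25.6%, a difference of means of -0.02 points. TUBB6 held 15.3% and 18.1% against 16.4% and 16.6%. TUBB2B stayed between 4.46% and 5.32% and TUBB2A between 3.24% and 4.07%. For each of the 5 beta isotypes the shares of the groups overlapped, and control 1 and control 2 were the outermost libraries for TUBB4B, TUBB6, TUBB2A and TUBB2B.

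**Figure D3:**
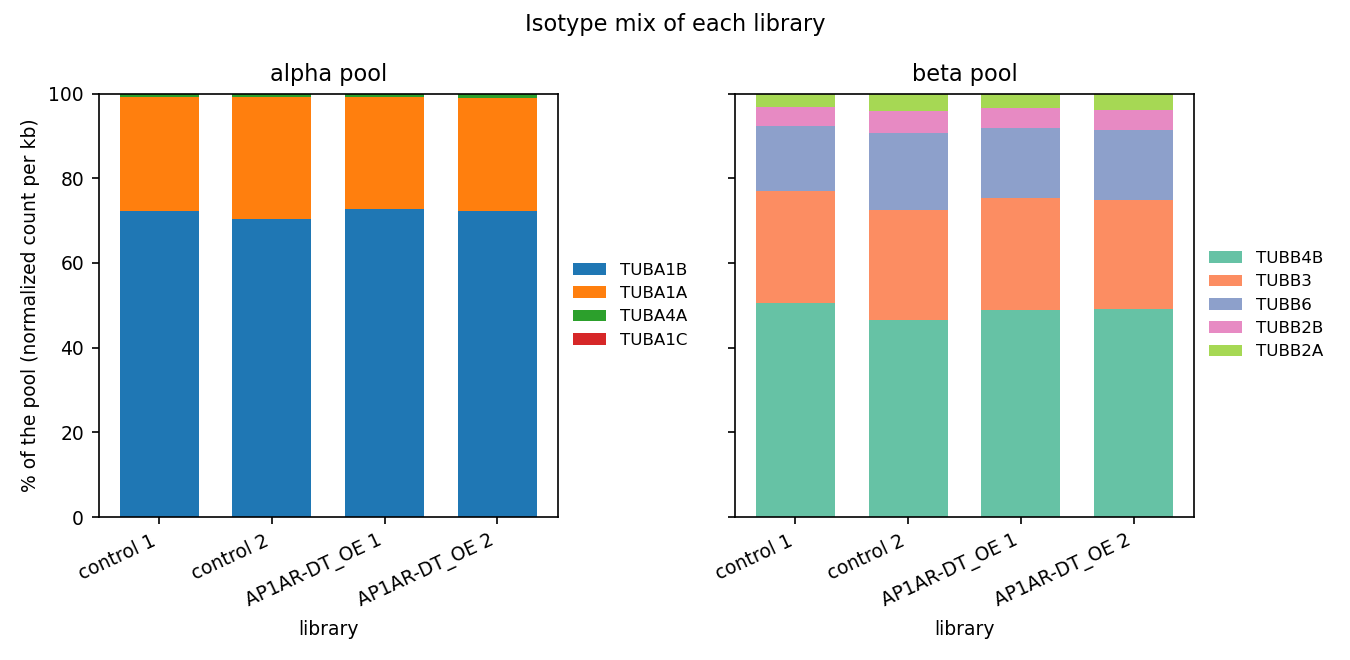
Stacked bars of the isotype mix in each library, in percent of the summed normalized read count per kb of the alpha isotypes (left) and of the beta isotypes (right), with both TUBB3 rows summed. TUBA1B fills 70.4% to 72.8% of the alpha pool and TUBB4B 46.6% to 50.6% of the beta pool, and the segments of the AP1AR-DT_OE libraries lie close to those of the controls.

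The pools themselves were compared to see whether the amount of tubulin mRNA differed. The alpha pool per kb was 58232 and 42409 in control against 60261 and 48423 in AP1AR-DT_OE, a Log2FC of 0.11 between the group means. The beta pool was 54531 and 37373 in control against 53791 and 44413 in AP1AR-DT_OE, a Log2FC of 0.10. Both turned their sign without control 2 (-0.10 for alpha and -0.15 for beta) and without AP1AR-DT_OE 1 (-0.06 and -0.05), and rose to 0.36 and 0.39 without control 1 and to 0.26 and 0.23 without AP1AR-DT_OE 2. The libraries of a group lay farther apart than the groups did: the log2 ratio of control 2 over control 1 was -0.46 for the alpha and -0.55 for the beta pool. The groups overlapped in both pools, with exact two-sided permutation p = 0.667 for alpha and p = 1 for beta. In bulk RNA, more cells with much tubulin mRNA and more tubulin mRNA per cell cannot be told apart.

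The ratio of the beta to the alpha pool was 0.936 and 0.881 in control against 0.893 and 0.917 in AP1AR-DT_OE. It averaged 0.909 ± 0.0390 (SD, n = 2) in control and 0.905 ± 0.0174 (SD, n = 2) in AP1AR-DT_OE, so the groups differed by far less than the libraries within them. TUBB is not in this beta pool, so the ratio is that of the rows here only. The mean over the 4 libraries was 0.907, and it became 1.12 when all exons of a gene were used as its length.

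The group difference of each isotype was then read from the fit over all genes. Of the 10 tubulin rows 1 was called at an adjusted p under 0.05 by the DESeq2 Wald test, against 33 of all 24014 genes, or 0.137%. The row that was called is the second TUBB3 row, described below, which had counts in a single library. None of the other 9 rows was called. Their adjusted p was 1 and their unadjusted p ran from 0.432 to 0.904 (DESeq2, n = 2 against n = 2).

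All 9 isotypes had a Log2FC above 0, from 0.05 to 0.41, with a median of 0.10. Over the 13298 genes with a mean of 50 or more normalized counts the median was -0.02 and 45.1% were above 0. The standard errors of the tubulin rows were 0.43 to 0.53, so that each Log2FC was smaller than its own error. The 95% intervals of the 9 rows together ran from 0.574-fold to 2.72-fold, and the interval of each of these 9 rows included no change.

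TUBA1C had the largest difference. Its normalized read counts of 221 and 174 in control against 259 and 267 in AP1AR-DT_OE gave a Log2FC of 0.41 (SE = 0.53, adjusted p = 1, DESeq2), and it was the only isotype in which the groups did not overlap. Among the 13298 genes with a mean of at least 50, 5.11% lay higher in AP1AR-DT_OE without overlap, and 9.45% did not overlap in either direction, so that 1 of 9 is near the background. The difference remained above 0 without any single library, from 0.26 to 0.59.

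TUBA1B had normalized read counts of 68540 and 48603 in control against 71398 and 57005 in AP1AR-DT_OE, a Log2FC of 0.13 (SE = 0.44). TUBB4B had 43165 and 27247 against 41026 and 34111, with a Log2FC of 0.09 (SE = 0.45). In TUBB3 the values were 24552 and 16487 against 24369 and 18866, with a Log2FC of 0.08 (SE = 0.45). For all 3 the control 1 and AP1AR-DT_OE 1 values were close and the replicate 2 values of both groups were lower.

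TUBA1A had a Log2FC of 0.05 (SE = 0.43), the smallest of the isotypes. TUBB2B had 0.08, TUBB6 had 0.10, TUBA4A had 0.11 and TUBB2A had 0.12, each with a standard error of 0.43 to 0.46. The sign of all of these except TUBB2A turned when a single library was left out. Over the 9 rows the Log2FC was below 0 in 7 without control 2 and in 6 without AP1AR-DT_OE 1. The lowest value without a library was -0.19, for TUBB4B without control 2.

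**Figure D4:**
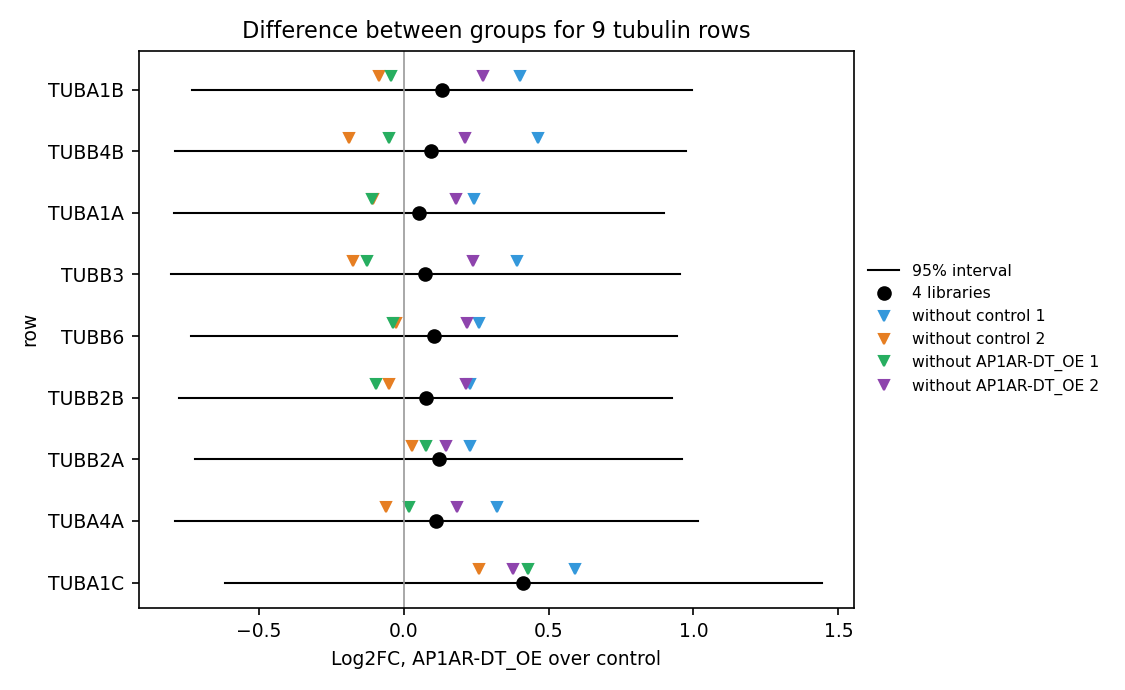
Log2FC of AP1AR-DT_OE over control for 9 tubulin rows (points) with 95% intervals (lines), and the Log2FC after leaving out 1 library (triangles above each line, coloured by the library). Every interval crosses 0, and the triangles without control 2 lie below 0 in 7 rows.

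The replicate numbers separated the libraries more than the groups did. Control 2 had less than control 1 in all 9 rows, by a log2 ratio of -0.66 in TUBB4B to -0.21 in TUBB2A. AP1AR-DT_OE 2 had less than AP1AR-DT_OE 1 in 8 of the 9 rows, the exception being TUBA1C with 0.04. Within number 1 the log2 ratio of AP1AR-DT_OE over control was -0.07 to 0.23, with a median of 0.05, and within number 2 it was 0.06 to 0.61, with a median of 0.19. Each number held 1 library per group, so these values have no test.

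The GC content of the transcript moved with these ratios. Across 13284 genes with a mean of 50 or more normalized counts, the log2 ratio between the controls (2 over 1) was lower at higher GC content (Spearman's rho = -0.78, a description across genes, which are not independent), and so was that between the AP1AR-DT_OE libraries (rho = -0.66). The tubulin transcripts have a GC content of 50.2% (TUBA1C) to 62.2% (TUBB3). The 4972 genes within that range had a median log2 ratio of -0.57 between the controls and -0.30 between the AP1AR-DT_OE libraries, and a median of -0.09 within number 1 and 0.18 within number 2. After each library's trend over GC content was taken out, the Log2FC of the 9 rows was 0.02 to 0.40, and control 2 was the lowest library in 3 of the 9 rows in place of all 9. The part of GC content in the group differences was not tested.

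**Figure D5:**
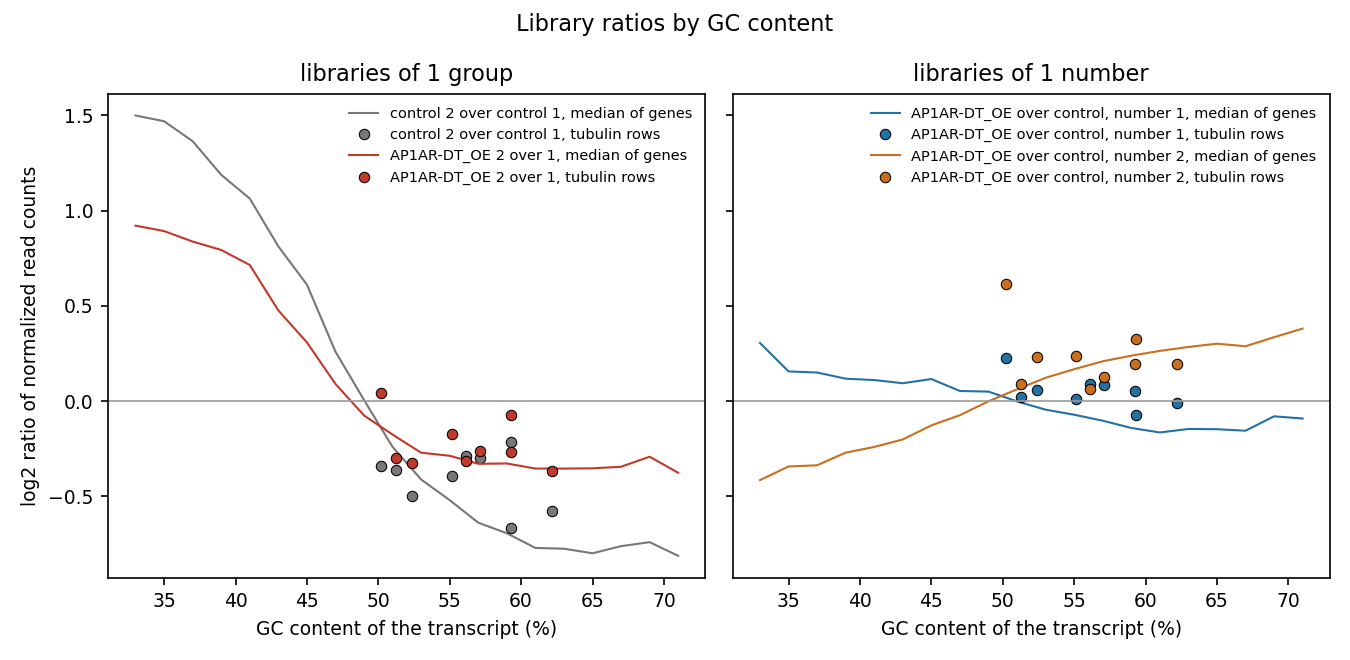
Log2 ratio of normalized read counts between the libraries of 1 group (left) and between the groups within 1 replicate number (right), against the GC content of the transcript in percent. Lines are medians of genes with a mean of at least 50 in bins of GC content, and points are the 9 tubulin rows, which lie between 50.2% and 62.2% GC, where both lines on the left are below 0 over most of the range.

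The second TUBB3 row (ENSG00000198211; chromosome 16, 89919165 to 89936092, GRCh38, plus strand) is annotated as a readthrough of MC1R, the melanocortin receptor gene that lies just before TUBB3, into TUBB3. Its counts were 0 in both controls, 0 in AP1AR-DT_OE 1 and 930 in AP1AR-DT_OE 2. At about 4 counts per read pair this is about 232.5 pairs in a single library. The Wald test gave an adjusted p of 0.00105, and the row was not called by the likelihood-ratio test of the same fit (adjusted p = 1.00, DESeq2), with counts divided by 4 (adjusted p = 1), or by edgeR, whose filter removed it. The row thus set AP1AR-DT_OE 2 apart from the other 3 libraries and did not separate the groups.

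A row at 0 in a library may still have held up to 3 read pairs, or 12 counts, a limit that covers counting error only. Against that floor, the value in AP1AR-DT_OE 2 was at least 99.7-fold higher than in control 2 and at least 70.1-fold higher than in AP1AR-DT_OE 1. The floor of control 1 was higher, 13.7 normalized read counts against 13.2 in AP1AR-DT_OE 1, so its bound lies below 70.1-fold. The table held 1334 genes with counts in a single AP1AR-DT_OE library and none in the other 3, and 3 of these were called. The readthrough row had the highest count of the 1334.

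The readthrough row shares 1584 exon bases with TUBB3 and 1192 with MC1R on the same strand, and 96.4% of its stretches of 100 bases are also in another transcript. The 930 counts corresponded to 4.66% of the counts of both TUBB3 rows in that library. In the same library the TUBB3 row had 19008 counts, against 21373 to 22216 in the others, but that library also had the fewest counts in all, and its normalized value of 18866 was above the 16487 of control 2. The sums of both rows were 21557 and 21373 in control against 22216 and 19938 in AP1AR-DT_OE, and their summed Log2FC was 0.11 (SE = 0.44, adjusted p = 1, DESeq2). MC1R had 1369, 1253, 1221 and 1005 counts in the same order and a Log2FC of -0.11 (SE = 0.48, adjusted p = 1, DESeq2). How reads in the common exons were divided between the rows was not tested.

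Tubulin pseudogenes, copies of the isotype genes that have lost their coding function, held a large part of the tubulin counts. There were 3 alpha and 8 beta pseudogene rows, and they took 26.7% to 31.3% of all alpha counts and 18.3% to 25.2% of all beta counts. Nearly all of the alpha part was TUBAP2, which the table lists as RP11-121L10.3, with 38014 and 32708 counts in control against 36354 and 32362 in AP1AR-DT_OE. TUBBP1 took nearly all of the beta part, with 26180 and 17693 against 22399 and 18213. As normalized read counts both were highest in control 1 and lowest in control 2.

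The TUBAP2 transcript was 96.8% identical to TUBA1B over 99.8% of its length, and 95.3% identical to TUBA1A and to TUBA1C over 83.9% and 82.8% of its length. TUBBP1 was 97.4% identical to TUBB over its whole length and 81.3% to 83.6% identical to the 5 beta isotypes with rows here. Neither pseudogene differed between the groups beyond its spread, with a Log2FC of 0.07 (SE = 0.46) for TUBAP2 and -0.03 (SE = 0.50) for TUBBP1. With pseudogene counts added to the pools, TUBA1B held 50.8% of the alpha pool and TUBB4B 36.4% of the beta pool. The origin of the reads in these rows was not tested.

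Most of the other tubulins were scarce. Of 12 listed genes (further alpha and beta isotypes and the gamma, delta and epsilon tubulins), 11 had a row, 3 had a mean of at least 50 and 0 were called. The 2 highest were the gamma tubulins, which nucleate microtubules at the centrosome. TUBG1 had normalized read counts of 927 and 716 in control against 1000 and 878 in AP1AR-DT_OE, with a Log2FC of 0.19 (SE = 0.46), and TUBG2 had 593 and 448 against 603 and 529, with 0.12 (SE = 0.47). Both overlapped between the groups, with control 2 lowest, the pattern of the alpha and beta rows.

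The genes that fold, recycle, modify and bind tubulin were counted from lists, which were also drawn up with earlier results known. Of 93 listed genes in 6 lists, the other tubulins included, 88 had a row and 0 were called by DESeq2, against the background of 0.137%. 1 gene had an unadjusted p under 0.05. The quasi-likelihood test of edgeR called 0 of all genes, so its 0 for these lists gives no information on them. Among the 71 genes with a mean of at least 50 the median Log2FC was -0.03 and 30 were above 0, close to the -0.02 of all such genes.

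In the folding list (the CCT ring, prefoldin and the tubulin cofactors) 19 of 21 genes had a row and 0 were called. The most abundant were CCT7, with 4355 and 4037 in control against 4540 and 4388 in AP1AR-DT_OE (Log2FC = 0.09, SE = 0.42), and CCT3, with 4082 and 4176 against 4389 and 4564 (Log2FC = 0.12, SE = 0.42). TBCEL, a cofactor-like protein that destabilizes tubulin, had the largest difference, from 118 and 201 to 85.6 and 25.8, a Log2FC of -1.53 (SE = 0.73, unadjusted p = 0.0375 and adjusted p = 1, DESeq2). TBCB, the cofactor that binds alpha tubulin, is named here after its values were seen: it had 1391 and 899 against 2307 and 1922, a Log2FC of 0.89 (SE = 0.46, adjusted p = 1, DESeq2). Under the alternatives its adjusted p ran from 0.000247 to 1, and it was called in 1 of them, DESeq2 with the GC correction and the replicate block. The groups did not overlap in 4 of the 18 folding genes with a mean of at least 50, where 9.45% of all such genes did not. CCT3, CCT7 and TBCB were higher and TBCEL was lower in AP1AR-DT_OE. In the other lists this held for 3 of 27 microtubule-associated genes and 1 of 13 modifying enzymes. It held for 0 of 3 other tubulins, 0 of 2 autoregulation genes and 0 of 8 genes of the gamma-tubulin ring complex.

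The 3 autoregulation genes had rows and 0 were called. TTC5 had 645 and 619 in control against 633 and 519 in AP1AR-DT_OE, a Log2FC of -0.13 (SE = 0.46), and CNOT11, the CCR4-NOT subunit that joins the feedback to mRNA decay, had 1337 and 1375 against 1615 and 1357, with 0.13 (SE = 0.44). In both the groups overlapped.

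The enzymes that modify the tails gave 19 rows of 20 listed genes and 0 calls, with a median Log2FC of -0.03 in the 13 genes with a mean of at least 50. TTLL12, a member of the tyrosine ligase family, was the most abundant with 3372 and 1824 in control against 2969 and 2145 in AP1AR-DT_OE (Log2FC = -0.02, SE = 0.48). AGBL5, which removes glutamate side chains, had 2243 and 1773 against 2075 and 1697 (Log2FC = -0.09, SE = 0.44). The largest difference was in TTLL1, a polyglutamylase, with 113 and 107 against 156 and 137, a Log2FC of 0.41 (SE = 0.59, adjusted p = 1, DESeq2) without overlap of the groups.

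Of 28 genes for microtubule-associated proteins all had a row, 27 had a mean of at least 50 and 0 were called. MAP4, the general stabilizing protein of non-neuronal cells, had 16479 and 11068 in control against 19318 and 12618 in AP1AR-DT_OE (Log2FC = 0.21, SE = 0.46). MAP1B, an early neuronal protein, had 9216 and 7446 against 8053 and 6999 (Log2FC = -0.15, SE = 0.43). KIF2A, a kinesin that takes microtubule ends apart, had the largest difference at -1.11 (SE = 0.79, adjusted p = 1, DESeq2), with 45.6 and 170.5 in control against 53.7 and 46.6 in AP1AR-DT_OE, where control 2 alone was high.

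The gamma-tubulin ring complex, the template for new microtubules, had rows for 8 of 9 genes and 0 calls. TUBGCP2 had 2445 and 1391 in control against 2235 and 1851 in AP1AR-DT_OE (Log2FC = 0.09, SE = 0.47) and MZT2B had 1538 and 1616 against 1441 and 1936 (Log2FC = 0.10, SE = 0.44). TUBGCP3 had the largest difference, -0.33 (SE = 0.51), with overlapping groups.

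Tubulin levels can follow the state and division of the cells, so marker lists were read beside them. The summed normalized read count of the 9 adrenergic markers was 24545 to 30449 in the controls and 26993 to 29439 in AP1AR-DT_OE, and that of the 6 proliferation genes was 8123 to 9754 against 8687 to 9534. Of the latter MCM2 and MKI67 were the most abundant, with a Log2FC of 0.14 (SE = 0.48) and -0.15 (SE = 0.49), and CCNB1, a cyclin of mitosis, had the largest difference at 0.23 (SE = 0.46). PHOX2A and HAND2, the most abundant adrenergic factors, had 0.11 (SE = 0.43) and 0.02 (SE = 0.43), and HAND1 had 0.33 (SE = 0.48). The 10 mesenchymal markers summed to 131487 to 174202 in the controls and 141260 to 166847 in AP1AR-DT_OE. No gene of these lists was called by DESeq2, and 1, PRRX1, a mesenchymal transcription factor, had an unadjusted p under 0.05, with 2770 and 11358 against 1241 and 2246 and a Log2FC of -2.02 (SE = 0.61, adjusted p = 0.431). The most abundant of that list were VIM and FN1, with 0.12 (SE = 0.43) and 0.06 (SE = 0.47). They were among the 3 of 10 mesenchymal markers with a Log2FC above 0, and the median of that list was -0.07. Of the 9 adrenergic markers 6 were above 0, with a median of 0.03. Of the 6 proliferation genes 3 were above 0, with a median of -0.03. The summed levels overlapped between the groups for all 3 lists, but a sum is weighted to its most abundant genes. By gene, with a mean of at least 50, the groups did not overlap in 1 of 8 adrenergic markers, GATA3. The same held for 1 of 10 mesenchymal markers, PRRX1, and 0 of 6 proliferation genes, against 9.45% of all such genes. Both genes were lower in AP1AR-DT_OE. The part of these lists in the tubulin values was not tested.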

How the data were processed

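Whole-cell RNA of 4 SK-N-SH libraries was sequenced from a TruSeq RNA kit. Per the paper's methods, the authors aligned 150-bp read pairs to hg19 with HISAT2 and derived read counts per gene with StringTie and its script. The submitters' processing notes name other tools, TopHat2 2.0.4, HTSeq and edgeR 2.6.12 among them. The annotation and the use of strand are not given in the sources used here. The deposited values are whole-number counts with no normalization. About 4 counts per read pair were assumed, because 3287 entries equal 4, against 2136 equal to 3 and 1509 equal to 5. This factor was not checked against the sequencing depth. Gene positions in the table are GRCh38. Its columns of the authors' DESeq2 and edgeR comparisons (fold changes and p-values) were not used.

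Counts were tested with DESeq2 1.42.0 in R 4.3.3 (median-of-ratios size factors, two-sided Wald test over all 24014 genes, Benjamini-Hochberg adjustment with default independent filtering, call at an adjusted p under 0.05). The quasi-likelihood test of edgeR 4.0.16 was run as an alternative, with other scalings, filters and lengths, and with each library left out. Transcripts, lengths and GC content came from GENCODE v44 mapped to GRCh37, by the canonical transcript, matched by gene ID for 23954 genes. The fit was tested on simulated data, in which more than the nominal share of the called genes had not been changed, with DESeq2 and with edgeR.

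Members and lists were chosen with earlier results of these data known. Every tubulin row was named. In each other list the named genes were those called or, with none called, the 2 of highest mean and the one of largest absolute Log2FC with a mean of at least 50. Pseudogenes were found by annotated name. Intervals are Log2FC ± 1.96 SE. The ends of the alpha coding sequences are not reported here.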

Additional observations from a re-analysis of the deposited data

How the results depend on the processing

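For the 9 isotype rows other than the readthrough, 100 values under alternatives that keep all libraries lay between 0.02 and 0.43, all above 0 and none called. Leaving out 1 library, where the lone library of a group is assumed to vary like the other group, turned the sign in 13 of 36 values. The ranges were -0.11 to 0.24 for TUBA1A, -0.084 to 0.40 for TUBA1B, -0.060 to 0.32 for TUBA4A, -0.094 to 0.23 for TUBB2B, -0.17 to 0.39 for TUBB3, -0.19 to 0.46 for TUBB4B and -0.038 to 0.26 for TUBB6.

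The count of tubulin rows called went from 1 to 0 with the edgeR quasi-likelihood test with and without the replicate block, the filter of 10 counts in 2 libraries, the likelihood-ratio test, the replicate block, the GC correction with the replicate block and counts divided by 4. It ranged from 0 to 1 without single libraries, with 0 without AP1AR-DT_OE 2. Over all genes 33 were called, 0 with edgeR (112 at an unadjusted p under 0.05), 44 with edgeR and the replicate block (437 unadjusted), 57 with the GC correction, 60 with the GC correction and the replicate block, and 15 with counts divided by 4. Without single libraries, chosen after seeing the data, the count ranged from 45 to 90. Listed microtubule genes went from 0 called to 1 with the GC correction and the replicate block: TBCB (Log2FC = 0.86, adjusted p = 0.000247, DESeq2).

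With the replicate block the readthrough row had a Log2FC of 6.61 (adjusted p = 1, DESeq2), and the isotypes were not called. Deviations from the group means of libraries with the same number correlated at 0.412 over 16730 genes, but 2 pairs do not show that the numbers pair the samples.

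With all 4 libraries the alternatives gave a Log2FC of 0.09 to 0.11 for the alpha and 0.06 to 0.10 for the beta pool. Leaving out 1 library gave -0.10 to 0.36 and -0.15 to 0.39, and the sign turned without control 2 and without AP1AR-DT_OE 1. The beta to alpha ratio of 0.907 was 1.12 with union exon length and 0.859 with pseudogene counts. The share of TUBA1B, 72.0%, was 50.8% with pseudogene counts. That of TUBB4B, 48.8%, was 67.1% with union exon length, 45.8% with coding length and 36.4% with pseudogene counts. The share of the TUBB3 rows, 26.1%, was 11.0% with union exon length, and 16 of 35 values of the shares apart from TUBA1B and TUBB4B moved by more than the spread between libraries. With scaling by total counts, chosen after seeing the data, 40 genes were called. The order of levels by other lengths was also read after seeing the data. TUBA1C, with the fewest counts of the 9 isotypes, had the largest standard error.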
